A study of Homo sapiens with 12 samples.

Results

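The genes of the NF-kappaB transcription factors and of the proteins that hold them in check were followed in KMS-11 cells given NSC12. The set comprised 10 genes: the subunit genes NFKB1, REL, RELA, NFKB2 and RELB, the inhibitor genes NFKBIA, NFKBIB and NFKBIE, the ubiquitin-editing enzyme gene TNFAIP3 and the adaptor gene TRAF3. The probes of these members were found by gene symbol, not by any measured value, and all 10 members were measured, through 14 probes, among 20045 genes. The list of members itself was chosen with earlier results of these data known. KMS-11 is an established human multiple myeloma line, and each array was hybridised with total RNA from these cells. The groups, of 3 arrays each, were NSC12 for 6 h, DMSO for 6 h, NSC12 for 12 h and DMSO for 12 h. NSC12, a small molecule that traps fibroblast growth factors, was given at 6 µM, and DMSO, its vehicle, served as the control. All 4 groups had been kept in 1% FBS for 24 h beforehand, so the DMSO cells were serum-starved cells too.

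NF-kappaB proteins act as dimers that enter the nucleus when their inhibitors are removed. In the canonical arm, an IkappaB kinase complex marks IkappaB proteins (encoded by NFKBIA, NFKBIB and NFKBIE) for destruction and frees dimers of NFKB1, RELA and REL products, and TNFAIP3, itself induced by the pathway, shuts the signal off. In the noncanonical arm, TRAF3 keeps the kinase NIK (encoded by MAP3K14) at a low level, and when TRAF3 is lost or recruited to a receptor, NIK drives the processing of the NFKB2 product into a partner of RELB. Much of this control acts on proteins, and the arrays read transcripts only. Many myeloma tumours and lines carry lesions that switch the pathway on, and KMS-11 is a line reported to carry an inactivating lesion of TRAF3. The labels do not mention that lesion.

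The promoters of the 4 members whose transcripts passed the test are printed here because the pathway is known to act back on its own genes. The sequences are from RefSeq on GRCh38.p14 and run from 250 bases before to 50 bases after an annotated transcription start, 5′ to 3′ on the strand of the gene. Capitals mark matches to the NF-kappaB site consensus, searched on both strands, with overlapping matches joined. All 4 windows are on the plus strand: chr4:102501109-102501408 for NFKB1, chr19:38899719-38900018 for NFKBIB, chr6:137867009-137867308 for TNFAIP3 and chr14:102777199-102777498 for TRAF3.
NFKB1: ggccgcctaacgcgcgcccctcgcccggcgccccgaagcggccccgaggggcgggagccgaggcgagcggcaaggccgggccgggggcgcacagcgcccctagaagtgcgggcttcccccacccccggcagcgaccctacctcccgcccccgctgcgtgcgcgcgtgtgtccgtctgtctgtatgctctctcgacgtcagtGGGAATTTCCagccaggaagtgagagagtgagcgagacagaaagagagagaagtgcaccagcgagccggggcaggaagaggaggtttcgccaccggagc
NFKBIB: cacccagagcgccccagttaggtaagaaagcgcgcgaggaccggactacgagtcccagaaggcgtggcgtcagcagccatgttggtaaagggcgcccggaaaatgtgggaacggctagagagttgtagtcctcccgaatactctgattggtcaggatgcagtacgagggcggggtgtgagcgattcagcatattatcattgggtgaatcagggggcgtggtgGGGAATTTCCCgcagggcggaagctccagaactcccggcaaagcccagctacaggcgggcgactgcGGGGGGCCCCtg
TNFAIP3: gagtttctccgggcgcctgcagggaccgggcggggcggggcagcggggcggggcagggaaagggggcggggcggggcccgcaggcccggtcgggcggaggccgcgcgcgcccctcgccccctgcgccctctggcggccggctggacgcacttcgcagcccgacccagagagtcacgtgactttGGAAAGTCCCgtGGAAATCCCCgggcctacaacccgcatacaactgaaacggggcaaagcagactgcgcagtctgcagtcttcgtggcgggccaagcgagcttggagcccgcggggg
TRAF3: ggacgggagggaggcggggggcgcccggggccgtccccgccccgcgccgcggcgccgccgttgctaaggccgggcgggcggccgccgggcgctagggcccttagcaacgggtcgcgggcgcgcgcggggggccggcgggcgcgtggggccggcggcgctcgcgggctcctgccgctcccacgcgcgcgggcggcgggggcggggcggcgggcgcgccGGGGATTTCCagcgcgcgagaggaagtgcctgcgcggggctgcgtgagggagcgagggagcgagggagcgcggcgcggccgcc
The match of NFKB1 spans bases -49 to -40 from the start, that of TRAF3 -33 to -24, and the pair of TNFAIP3 -67 to -58 and -55 to -46. NFKBIB holds matches at -28 to -18 and at 38 to 47. NFKB1 and NFKBIB have another promoter entry each with no match, and the entry with a match is the one shown.

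Of the 10 members, 8 have promoter entries in the RefSeq table, 13 entries in all, while RELB and NFKBIE were not analysed here in this respect. The NF-kappaB consensus was found in 8 of the 13 entries, against 3956 of 35116 promoters in the table (11.3%). By gene, 7 of the 8 members held a match in at least 1 entry, against 13.3% of 27305 genes. REL, NFKBIA and NFKB2 were the other members with a match, and RELA held none in this window. The consensus is rich in G and C. These bases made up 51.3% of 1 RELA entry and 60.7% to 86% of the other member entries. The median over all promoters was 58.7%, and the part of base content in the shares of matches was not tested. The heat shock element, taken as 3 alternating units GAA, TTC and GAA (or TTC, GAA and TTC) with 2 bases between units, was in 0 of the 13 entries and in 0.5% of all promoters. A match is a description of the sequence, and binding was not measured.

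Levels are log2 intensities after quantile normalization, and the brightest probe of a gene stands for it. The background level was set at 6.97, the level that 95% of 371 olfactory receptor genes, rarely expressed outside the nose, stayed under on average. Of all genes, 12634 (63%) lay above it in at least 1 group, and so did 9 of the 10 members. The level was set on means over all 12 arrays. The highest of 4 group means is never below that mean, so counts above background are lenient. REL lay below the background level in each group. Mean intensity before normalization ranged from 378.2 to 497.1 on NSC12 arrays and from 346.9 to 634.4 on DMSO arrays at 6 h, and from 547.9 to 617.7 on NSC12 arrays and from 450.8 to 599.1 on DMSO arrays at 12 h. Arrays of a group correlated at 0.992 to 0.996, and no pair held identical values. All 10 plasma cell markers (among them SDC1, IRF4 and XBP1) lay above background in at least 1 group. Of these, CD38 had group means of 6.93 to 7.06, around the background level, and SLAMF7 of 6.97 to 7.28. Of 10 T and NK cell markers, 8 lay below background in each group, CD3D and CD3E among them. Of 10 myeloid markers, 7 were above background, and their summed level was 10.45 to 10.54 in NSC12 and 10.56 to 10.72 in DMSO at 6 h, and 10.87 to 11.06 in NSC12 and 10.68 to 10.84 in DMSO at 12 h. Of these 10, 1 fell at 6 h and 2 rose at 12 h. Counts of markers that rose or fell are calls by the limma rule given below. Over all genes, 5.56% rose and 7.51% fell at 6 h, and 13.6% rose and 15.2% fell at 12 h. Among genes above background these shares were 8.69% and 11.8% at 6 h, and 21.4% and 23.9% at 12 h. S100A8, S100A9, FCN1 and LYZ had group means of 6.90 to 7.04, close to the background level. CD68, a lysosomal gene not limited to myeloid cells, was the brightest of the 10 (8.45 to 9.75) and weighs most in their sum. It changed by -0.50 at 6 h and 0.57 at 12 h, calls that were lost as the mean of its probes. FCGR3A, an Fc receptor gene, rose by 0.30 at 12 h (limma adjusted p = 0.0351). CSF1R and ITGAM were below background. Of 10 stromal and endothelial markers, 3 were above background, none passed at 6 h by limma (1 at an unadjusted p below 0.05), and at 12 h DCN rose by 0.32 (limma adjusted p = 0.000778) and PDGFRB fell by 0.30 (limma adjusted p = 0.00815). The summed level of the plasma cell markers was 15.36 to 15.44 in NSC12 and 15.45 to 15.47 in DMSO at 6 h, and 15.35 to 15.46 in NSC12 and 15.58 to 15.65 in DMSO at 12 h, where 6 of the 10 fell. At 6 h, 1 of the 10 rose and 2 fell. The part of these values in the results below was not tested. The labels do not say that replicates were separate cultures, so the spread behind the p-values may be a technical one.

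NSC12 changed 1 member at 6 h and 3 at 12 h, in both directions. TNFAIP3 rose at 6 h. At 12 h the NFKB1 transcript fell, and NFKBIB (its brighter probe only) and TRAF3 (1 probe, less than 1 log2 unit above background) rose. The other members, NFKBIA and the RELA, RELB and NFKB2 subunit genes included, did not pass the test at either time. A gene is called where its Benjamini-Hochberg adjusted p over all 20045 genes, from limma, is below 0.05. By that rule 1 of 10 members was called at 6 h, against 13.1% of all genes, and 3 of 10 at 12 h, against 28.9% of all genes. The effects at 12 h and 6 h differed in 3 of 10 members (NFKB1, NFKBIB and TRAF3), against 10.4% of all genes. Among genes above background the shares called were 20.4% at 6 h and 45.3% at 12 h, and 16.3% for the difference. The count of members called was near the share of all genes at both times, and what follows describes single genes.

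**Figure D1:**
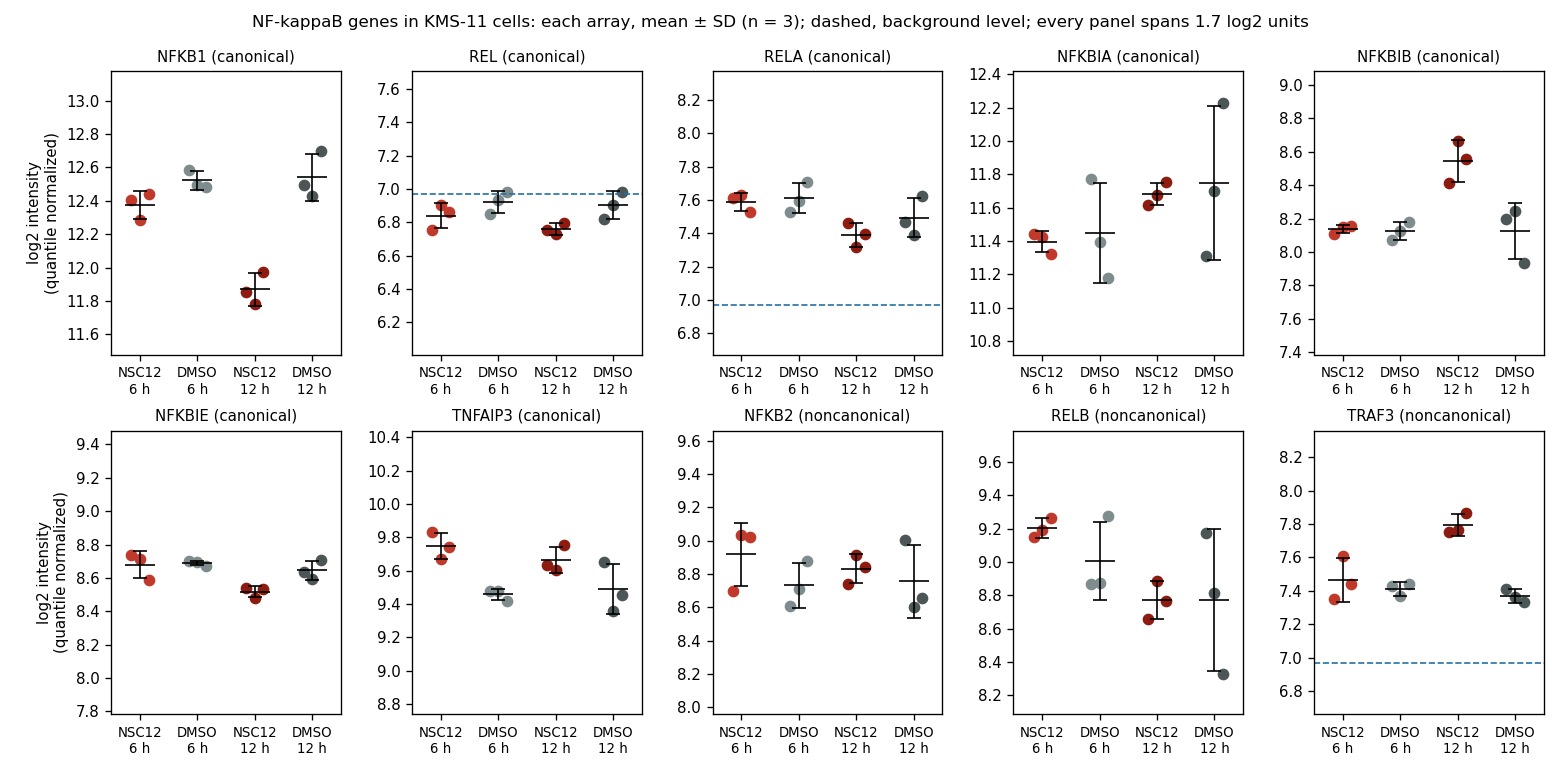
Normalized log2 intensity (vertical axes, each spanning the same number of log2 units) of the 10 NF-kappaB genes on each array, with points for arrays and bars for the mean ± SD of 3 arrays, NSC12 beside DMSO at 6 h and at 12 h; the dashed line is the background level of 6.97. NFKB1 is lowest in NSC12 at 12 h (11.87), NFKBIB and TRAF3 are highest there (8.54 and 7.79), and the DMSO arrays of NFKBIA and RELB spread widely.

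NFKB1 encodes p105, which is cut to the p50 DNA-binding subunit of the canonical dimer. At 12 h its level was 11.86, 11.78 and 11.97 in NSC12, against 12.50, 12.43 and 12.70 in DMSO (replicates 1, 2 and 3). All 3 NSC12 arrays lay below all 3 DMSO arrays. The change was -0.67 ± 0.07 (log2, SE; limma adjusted p = 2.94e-07), a level 1.59-fold lower in NSC12. At 6 h its level was 12.41, 12.28 and 12.44 in NSC12 and 12.59, 12.50 and 12.49 in DMSO. These groups did not overlap either, but the change of -0.15 ± 0.07 did not pass (limma adjusted p = 0.247), with a 95% interval of -0.30 to 0.01. The effect at 12 h differed from that at 6 h by -0.53 ± 0.11 (limma adjusted p = 0.00226), a call lost with median centring (-0.27, limma adjusted p = 0.721). Ordered from low to high, the group means were 11.87 ± 0.10 in NSC12 at 12 h, 12.38 ± 0.08 in NSC12 at 6 h, 12.52 ± 0.06 in DMSO at 6 h and 12.54 ± 0.14 in DMSO at 12 h (SD, n = 3 each). The DMSO arrays of both times overlapped, and NSC12 at 12 h was compared with DMSO at 12 h only. Among genes above background, 90.9% had a smaller absolute change at 12 h than NFKB1.

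REL and RELA encode the subunits of the canonical arm that activate transcription, and neither passed the test. RELA was at 7.61, 7.63 and 7.53 in NSC12 and 7.53, 7.60 and 7.71 in DMSO at 6 h, and at 7.46, 7.32 and 7.40 in NSC12 and 7.47, 7.39 and 7.62 in DMSO at 12 h. Its groups overlapped at both times, with changes of -0.02 (95% interval -0.19 to 0.15) and -0.10 (-0.27 to 0.07). RELA lay less than 1 log2 unit above the background level, where the background signal left in the deposited values understates a fold change. REL was at 6.76, 6.91 and 6.86 in NSC12 and 6.85, 6.93 and 6.98 in DMSO at 6 h. At 12 h it was at 6.75, 6.73 and 6.80 in NSC12 and 6.82, 6.90 and 6.98 in DMSO. The NSC12 arrays of REL lay below the DMSO arrays at 12 h, but its group means were below the background level throughout, and the change of -0.14 did not pass (limma adjusted p = 0.0884). Without DMSO 12 h replicate 1 it was -0.19 and passed (limma adjusted p = 0.0447). Its other probe was below background as well, with changes of -0.14 at 6 h and -0.06 at 12 h that did not pass. No fold is given for it.

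TNFAIP3 encodes A20, a ubiquitin-editing enzyme that ends canonical signalling and a known target of NF-kappaB. It was the single member called at 6 h. Its level was 9.83, 9.67 and 9.74 in NSC12 and 9.48, 9.48 and 9.42 in DMSO, with all NSC12 arrays above all DMSO arrays. The change was 0.29 ± 0.08 (log2, SE; limma adjusted p = 0.0213), or 1.22-fold. At 12 h it was at 9.63, 9.61 and 9.75 in NSC12 and 9.65, 9.36 and 9.46 in DMSO, and 1 DMSO array lay among the NSC12 arrays. The change of 0.17 ± 0.08 did not pass there (limma adjusted p = 0.135, 95% interval 0.002 to 0.35), and the effects at 12 h and 6 h did not differ by the test (difference -0.12 ± 0.12, limma adjusted p = 0.654). The call at 6 h is a weak one. It was lost with median centring in place of quantile normalization (0.11, limma adjusted p = 0.856), in a fit with a term for array brightness or without NSC12 6 h replicate 3 (limma adjusted p = 0.0571 each), without NSC12 6 h replicate 1 (limma adjusted p = 0.109) or DMSO 6 h replicate 3 (limma adjusted p = 0.0692), and in a fit of all 47319 probes (limma adjusted p = 0.0518), where 7.15% of probes were called. Without DMSO 12 h replicate 1 the change at 12 h was 0.26 and passed (limma adjusted p = 0.0255).

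NFKBIA encodes IkappaBalpha, the fast-acting inhibitor that NF-kappaB itself induces, and its transcript is a common readout of the canonical arm. Its level at 6 h was 11.44, 11.43 and 11.32 in NSC12 and 11.77, 11.39 and 11.18 in DMSO. At 12 h it was 11.62, 11.68 and 11.75 in NSC12 and 11.31, 11.70 and 12.23 in DMSO. The NSC12 arrays lay within the range of the DMSO arrays at both times. The changes were -0.05 ± 0.15 (95% interval -0.37 to 0.27, limma adjusted p = 0.897) at 6 h and -0.06 ± 0.15 (-0.38 to 0.25, limma adjusted p = 0.843) at 12 h. Both intervals include changes of either sign. The SD was 0.06 in NSC12 and 0.30 in DMSO at 6 h, and 0.07 in NSC12 and 0.46 in DMSO at 12 h. The DMSO array with the lowest NFKBIA level at each time was also the dimmest of its group before normalization (346.9 at 6 h and 450.8 at 12 h). In a fit with a term for array brightness, the NFKBIA change at 6 h was 0.11 ± 0.15 and did not pass (limma adjusted p = 0.747). The part of array brightness in the spread itself was not tested. Leaving out 1 array at a time moved the change from -0.19 to 0.11 at 6 h and from -0.28 to 0.18 at 12 h, and none of these passed.

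**Figure D2:**
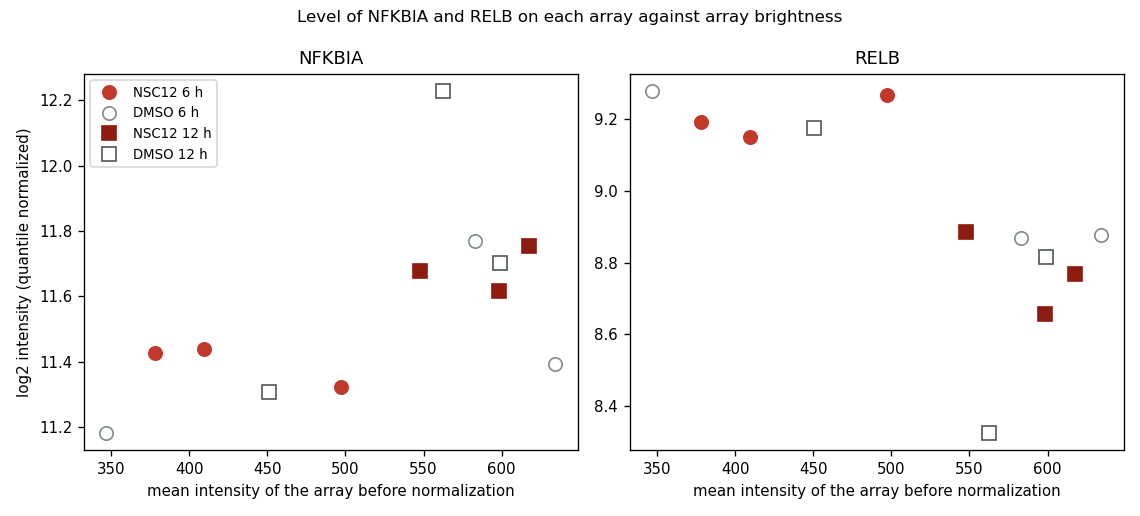
Normalized log2 intensity of NFKBIA (left) and RELB (right) on each of the 12 arrays against the mean intensity of the array before normalization, with filled points for NSC12 and open points for DMSO, circles for 6 h and squares for 12 h. The dimmest DMSO array of each time (346.9 and 450.8) has the lowest NFKBIA level and the highest RELB level of its group.

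NFKBIB encodes IkappaBbeta, an inhibitor that is degraded more slowly. Its brightest probe, ILMN_1690473, read 8.11, 8.15 and 8.15 in NSC12 and 8.07, 8.12 and 8.18 in DMSO at 6 h. At 12 h it read 8.41, 8.66 and 8.56 in NSC12 and 8.20, 8.25 and 7.93 in DMSO. The groups coincided at 6 h and were apart at 12 h, where the change was 0.42 ± 0.09 (log2, SE; limma adjusted p = 0.000808), or 1.34-fold. The effect at 12 h exceeded that at 6 h by 0.41 ± 0.13 (limma adjusted p = 0.0419), and with 1 array left out at a time this difference passed without DMSO 12 h replicate 1 or 2 or NSC12 12 h replicate 1, and not without any of the other 9 arrays (limma adjusted p of 0.0536 to 0.122). The second probe, ILMN_1674152, did not follow. It read 7.29, 6.92 and 7.003 in NSC12 and 7.14, 7.32 and 7.35 in DMSO at 12 h, a change of -0.20 ± 0.10 that did not pass in the fit of all probes (limma adjusted p = 0.207), where 18.4% of probes were called. Both probes carry the same gene symbol, and which transcript part each reads was not analysed here. With the mean of the pair the change at 12 h was 0.11 (limma adjusted p = 0.249), so the rise rests on the brighter probe.

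**Figure D3:**
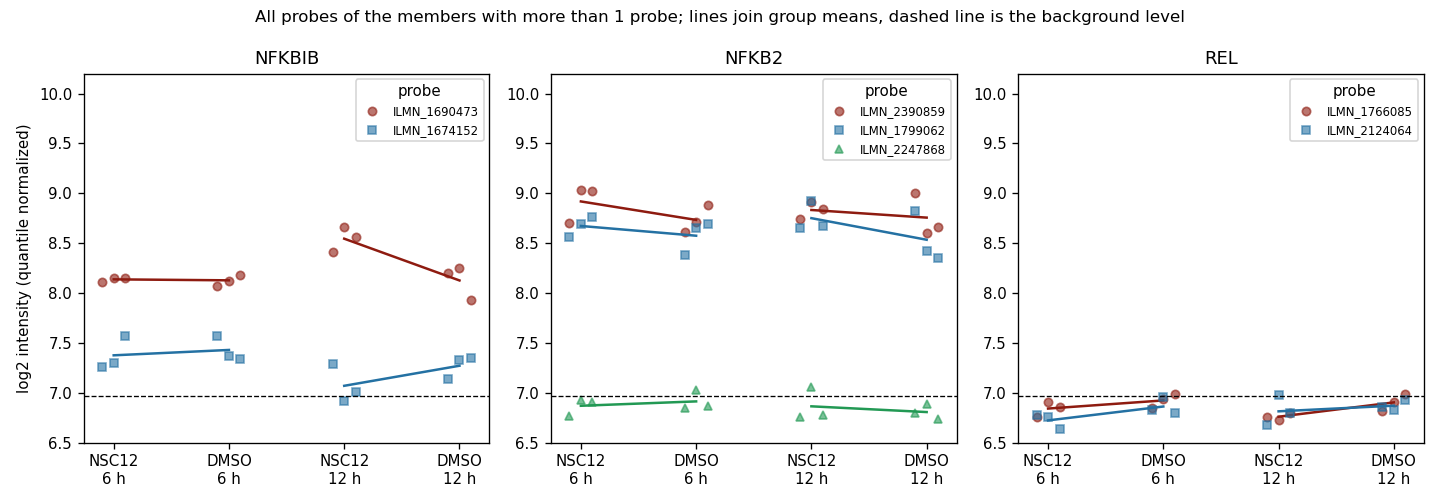
Normalized log2 intensity of every probe of the members that have more than 1 probe (NFKBIB, NFKB2 and REL) on each array; lines join the NSC12 and DMSO means of a time and the dashed line is the background level of 6.97. The probes of NFKBIB move apart at 12 h, 1 probe of NFKB2 and both of REL lie near or below background.

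NFKBIE encodes IkappaBepsilon, an inhibitor that acts late in the response. At 6 h it was at 8.74, 8.71 and 8.59 in NSC12 and 8.70, 8.70 and 8.67 in DMSO. The later arrays gave 8.54, 8.48 and 8.53 in NSC12 and 8.63, 8.59 and 8.71 in DMSO. The arrays at 12 h did not overlap, but the change of -0.13 ± 0.08 did not pass (limma adjusted p = 0.25, 95% interval -0.28 to 0.03). In all, 2 of 10 members had arrays that did not overlap at 6 h (NFKB1 and TNFAIP3), against 27.9% of all genes, and 5 of 10 at 12 h (NFKB1, REL, NFKBIB, NFKBIE and TRAF3), against 38.2% of all genes.

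In the noncanonical arm, NFKB2 encodes p100, which restrains RELB until it is cut to p52. Its brightest probe, ILMN_2390859, read 8.70, 9.03 and 9.02 in NSC12 and 8.61, 8.71 and 8.88 in DMSO at 6 h. The same probe at 12 h gave 8.74, 8.91 and 8.84 in NSC12 and 9.004, 8.60 and 8.66 in DMSO. The groups overlapped at both times and the changes did not pass (0.19 ± 0.11, limma adjusted p = 0.333, and 0.08 ± 0.11, limma adjusted p = 0.709). A second probe above background, ILMN_1799062, gave 0.10 and 0.22, and the third, ILMN_2247868, averaged below the background level in every group.

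RELB encodes the partner of p52 and is itself a known NF-kappaB target. At 6 h its level was 9.15, 9.19 and 9.27 in NSC12 and 8.87, 8.88 and 9.28 in DMSO. By 12 h it was 8.66, 8.88 and 8.77 in NSC12 and 9.17, 8.81 and 8.33 in DMSO. The DMSO arrays covered the whole range of the NSC12 arrays at 12 h. The changes were 0.19 ± 0.14 (95% interval -0.11 to 0.50) at 6 h and -0.002 ± 0.14 (-0.30 to 0.30) at 12 h, with limma adjusted p of 0.477 and 0.997. The highest DMSO array of each time was the dimmest of its group, the same arrays on which NFKBIA was lowest. Without both of these arrays, an alternative chosen after seeing the data, the change at 6 h was 0.33 (limma adjusted p = 0.0497). No other alternative called RELB at 6 h, and none at 12 h.

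TRAF3 encodes the adaptor that keeps NIK low and so restrains the noncanonical arm. Its probe, ILMN_2383774, read 7.75, 7.76 and 7.87 in NSC12 and 7.41, 7.37 and 7.33 in DMSO at 12 h. All NSC12 arrays lay above all DMSO arrays, and the change was 0.42 ± 0.08 (log2, SE; limma adjusted p = 0.000183), or 1.34-fold. At 6 h it read 7.35, 7.61 and 7.44 in NSC12 and 7.43, 7.37 and 7.44 in DMSO. These overlapped, with a change of 0.05 ± 0.08 (limma adjusted p = 0.767). The effect was larger at 12 h than at 6 h by 0.37 ± 0.11 (limma adjusted p = 0.0344), and with 1 array left out at a time this difference passed without replicate 2 of either 6 h group or replicate 1 of either 12 h group, and not without any of the other 8 arrays (limma adjusted p of 0.0515 to 0.104). Ordered from high to low, the group means were 7.79 ± 0.06 in NSC12 at 12 h, 7.47 ± 0.13 in NSC12 at 6 h, 7.41 ± 0.04 in DMSO at 6 h and 7.37 ± 0.04 in DMSO at 12 h (SD, n = 3 each), and the last 3 of these overlapped. The gene has 1 probe, its levels lay less than 1 log2 unit above the background level of 6.97, and which part of the transcript it reads was not analysed here. Whether this signal comes from an intact TRAF3 transcript was not tested.

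**Figure D4:**
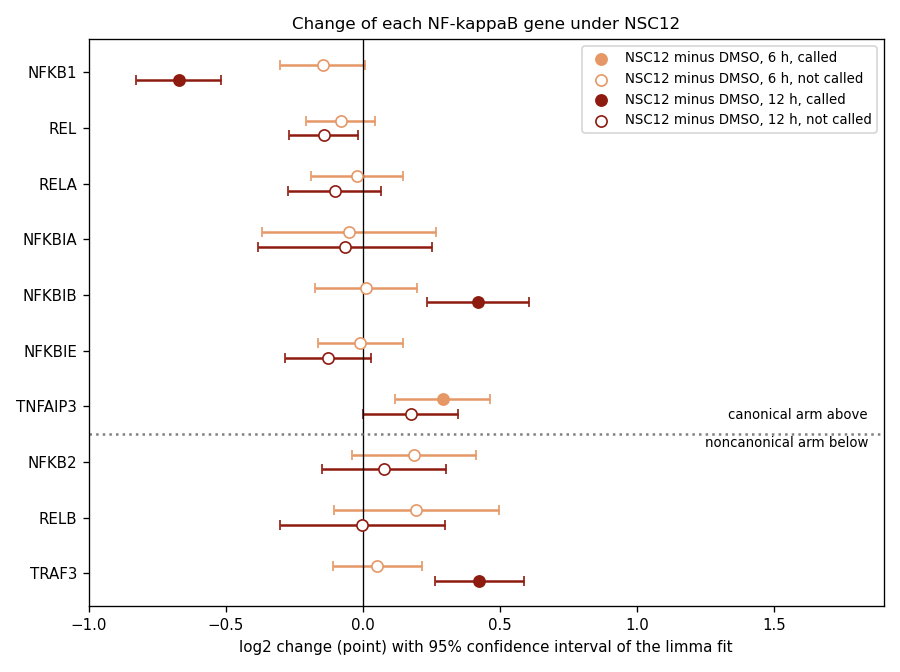
Change of each of the 10 genes under NSC12 (log2, NSC12 minus DMSO, horizontal axis) at 6 h and 12 h, as points with the 95% confidence interval of the limma fit; filled points passed at an adjusted p below 0.05, and the dotted line parts the canonical genes (above) from the noncanonical ones (below). The filled points are TNFAIP3 at 6 h (0.29) and NFKB1 (-0.67), NFKBIB (0.42) and TRAF3 (0.42) at 12 h.

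Set side by side, neither arm had most of its members called. Of the 7 canonical members, 1 was called higher and 0 lower at 6 h (TNFAIP3), with a median change of -0.02, and 1 higher (NFKBIB) and 1 lower (NFKB1) at 12 h, with a median of -0.10. Of the 3 noncanonical members, 0 were called at 6 h by limma (0 also at an unadjusted p below 0.05), with a median of 0.19, and 1 was called higher at 12 h (TRAF3), with a median of 0.08. The median over all genes was -0.002 at 6 h and -0.001 at 12 h. The sign of the 3 noncanonical changes was positive at 6 h, and none of them passed. The difference between the arms was not tested. The comparisons at 6 h and 12 h have their own DMSO arrays. Between DMSO at 12 h and DMSO at 6 h, 0 of 10 members were called (0 at an unadjusted p below 0.05 as well), against 0.399% of all genes. The largest changes over time in DMSO were 0.30 for NFKBIA (limma adjusted p = 0.539) and -0.24 for RELB (limma adjusted p = 0.63).

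The other genes of the pathway were taken from lists, and the call shares to hold their counts against are 5.56% of all genes higher and 7.51% lower at 6 h, and 13.6% higher and 15.2% lower at 12 h. Among genes above background those shares were 8.69% and 11.8% at 6 h, and 21.4% and 23.9% at 12 h. CHUK, MALT1, CD40 and TRAF1 each stand in more than 1 of the lists. No list was tested as a whole.

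Among 20 measured genes upstream in the canonical arm (kinases, adaptors and ubiquitin enzymes), 1 rose and 3 fell at 6 h, and 2 rose and 8 fell at 12 h, with medians of -0.04 and -0.16. IKBKG, which encodes NEMO, the regulatory subunit of the IkappaB kinase complex, was at 9.72 ± 0.02 in NSC12 and 10.28 ± 0.04 in DMSO at 12 h (SD, n = 3 each), a fall of 1.48-fold (log2 change -0.56, limma adjusted p = 1.69e-06). At 6 h its change was 0.10 and did not pass. The catalytic subunit genes IKBKB and CHUK, named after their values were seen, fell at 12 h too, by 0.39 (limma adjusted p = 0.000288) and by 0.23 on the log2 scale (limma adjusted p = 0.0473). Those of IKBKG and IKBKB held in 22 of 22 alternatives. The call of CHUK held in 9 of 22, and was lost without any 1 of the 6 NSC12 arrays, and without DMSO 6 h replicate 2 or DMSO 12 h replicate 2 or 3 (limma adjusted p of 0.0514 to 0.211). It was also lost with median centring, with cyclic loess and with only the arrays of 12 h (limma adjusted p of 0.0577 to 0.0693). RNF31, the catalytic subunit of the linear ubiquitin ligase, fell at both times (-0.49 and -0.47), and so did CUL1 (-0.36 and -0.47), the scaffold of the ligase that marks IkappaB, whose calls were lost with median centring. TRAF6, an adaptor ligase of toll-like and interleukin receptors, went the other way, with 0.43 at 6 h (lost with median centring) and 0.56 at 12 h.

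Among 13 measured genes upstream in the noncanonical arm, 2 rose and 1 fell at 6 h, and 3 (TRAF3 among them) rose and 4 fell at 12 h, with medians of -0.02 and -0.04. TNFRSF1B, the second receptor of tumour necrosis factor, was at 8.93 ± 0.11 in NSC12 and 10.23 ± 0.15 in DMSO at 12 h, 2.48-fold lower (limma adjusted p = 1.5e-10). At 6 h its change of -0.25 did not pass (limma adjusted p = 0.0676). TNFRSF13B, the receptor TACI for the survival factors BAFF and APRIL, rose at both times, 1.33-fold at 6 h and 1.81-fold at 12 h, to 11.23 ± 0.10 in NSC12 against 10.37 ± 0.07 in DMSO at 12 h. TNFSF13B, which encodes BAFF, rose 1.28-fold and 1.42-fold. With median centring both genes lost their call at 6 h, and TNFSF13B its call at 12 h. The call of TNFSF13B at 6 h was also lost as the mean of its probes (limma adjusted p = 0.108) and without NSC12 6 h replicate 2 (limma adjusted p = 0.0508). MAP3K14, which encodes NIK and was named after its values were seen, changed by -0.02 at 6 h and by -0.31 at 12 h, where it passed (limma adjusted p = 0.0389) but its arrays overlapped and the call held in 16 of 22 alternatives. It was lost without replicate 1 or 2 of either 12 h group (limma adjusted p of 0.0612 to 0.192), and with the dimmest DMSO arrays (1 per time) both left out (limma adjusted p = 0.127).

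Of 18 other inhibitors and nuclear IkappaB genes, 3 rose and 4 fell at 6 h, and 7 rose and 2 fell at 12 h, with medians of -0.02 and 0.08. NFKBIZ, a nuclear IkappaB protein that acts on transcription, changed direction: it was at 8.65 ± 0.10 in NSC12 and 9.05 ± 0.08 in DMSO at 6 h, and at 9.42 ± 0.18 in NSC12 and 8.85 ± 0.10 in DMSO at 12 h. The fall of 0.40 at 6 h did not pass as the mean of its probes (-0.13, limma adjusted p = 0.233), and the rise of 0.58 at 12 h passed in 22 of 22 alternatives. COMMD1, which promotes the degradation of RELA, rose 1.25-fold at 6 h, a call lost with median centring, and 1.64-fold at 12 h. TAX1BP1, an adaptor through which TNFAIP3 acts, rose 1.58-fold at 12 h and did not pass at 6 h (0.19, limma adjusted p = 0.128). PDCD4, an inhibitor of translation that also restrains NF-kappaB activity, fell by 0.75 at 6 h and by 0.42 at 12 h, and the call at 12 h was lost with median centring.

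Of 33 measured genes known as NF-kappaB targets, 22 were above background, 6 rose and 1 fell at 6 h, 8 rose and 4 fell at 12 h, and the medians were 0.03 and 0.04. The 8 that rose at 12 h include PTGS2 (0.19), below background in each group, and CCL20 (0.18), whose highest group mean was 6.98. Those that fell at 12 h were SDC4 (-0.34), TNFAIP2 (-0.29), CD83 (-0.29) and CXCL8 (-0.24). The genes that moved most were CCL3, a chemokine, at 13.27 ± 0.13 in NSC12 and 8.03 ± 0.09 in DMSO at 6 h and at 13.02 ± 0.07 in NSC12 and 8.99 ± 0.07 in DMSO at 12 h, and GADD45B, a stress and survival gene, with 10.93 ± 0.11 in NSC12 and 8.77 ± 0.04 in DMSO at 6 h and 11.95 ± 0.02 in NSC12 and 8.94 ± 0.20 in DMSO at 12 h. CCL3 has near-identical copies whose RNA its probe may read, so its identity is uncertain. CCL5, another chemokine, rose 1.21-fold at 6 h and 1.53-fold at 12 h, and the call at 6 h was lost with median centring (limma adjusted p = 0.613), without NSC12 6 h replicate 1 or 2 or DMSO 6 h replicate 3, and with the dimmest DMSO arrays (1 per time) both left out (limma adjusted p of 0.0592 to 0.131). CFLAR, an inhibitor of death receptor signalling, fell by 0.69 at 6 h (limma adjusted p = 0.0189), a call lost when brightness was a term of the fit and without NSC12 6 h replicate 1 or 3 or DMSO 6 h replicate 1 or 2 (limma adjusted p of 0.0531 to 0.125), and did not pass at 12 h (-0.12). IL6, TNF, IL1B, CXCL1 and CXCL2, textbook targets of the canonical arm, lay below background in each group. So did CCL4, another listed chemokine, with changes of 0.03 at 6 h and 0.09 at 12 h that did not pass (limma adjusted p of 0.855 and 0.261).

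The genes of an NF-kappaB signature described for myeloma that are not members were 6, of which 5 were measured. None passed at 6 h by limma (1 at an unadjusted p below 0.05), with a median of 0.03. At 12 h, 3 rose and 0 fell, with a median of 0.28: IL2RG, a cytokine receptor chain, 1.46-fold (8.52 ± 0.15 in NSC12 and 7.98 ± 0.15 in DMSO), PLEK, a protein kinase C substrate, 1.27-fold, and MALT1, a paracaspase, 1.22-fold. The call of MALT1 held in 15 of 22 alternatives and was lost without NSC12 12 h replicate 2 or 3 or DMSO 12 h replicate 1 or 2 (limma adjusted p of 0.059 to 0.17). It was also lost with the dimmest DMSO arrays (1 per time) both left out (limma adjusted p = 0.0569), with cyclic loess (limma adjusted p = 0.0643) and with median centring (limma adjusted p = 0.516), which ended the call of PLEK too. TNFAIP3 and TRAF3, both counted with this pathway in myeloma, are described above.

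**Figure D5:**
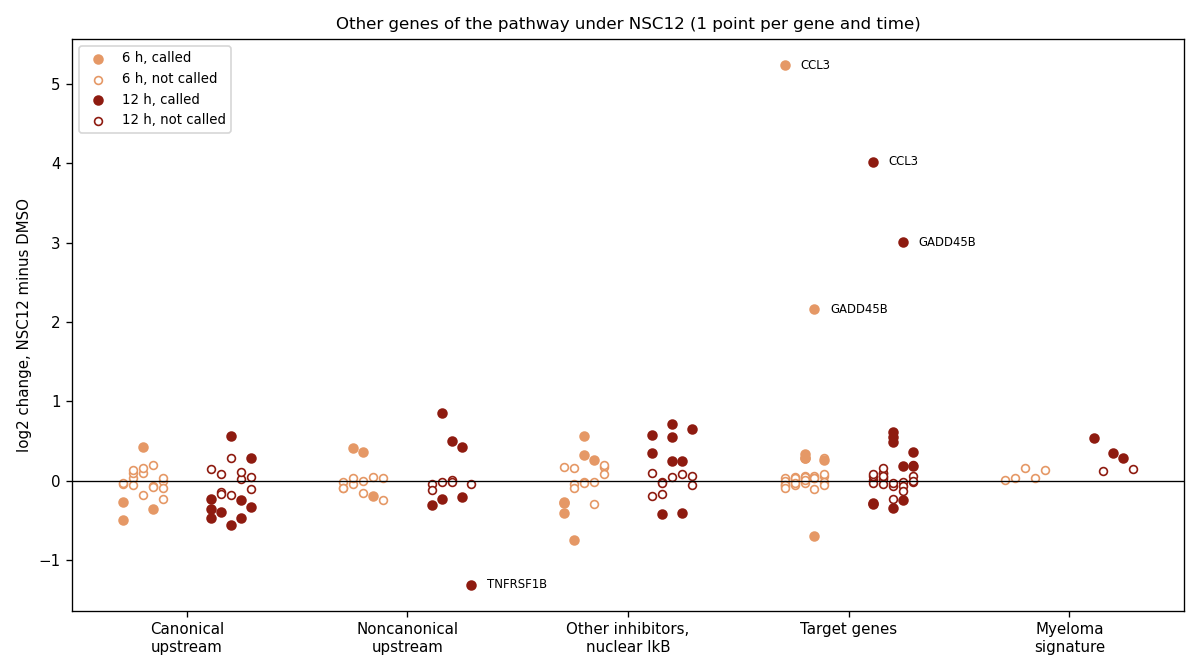
Change under NSC12 (log2, NSC12 minus DMSO, vertical axis) of each measured gene of the 5 pathway lists at 6 h and at 12 h, 1 point per gene and time, filled where the adjusted p was below 0.05. Most points lie within 1 log2 unit of 0, and CCL3 (5.24 and 4.02), GADD45B (2.16 and 3.01) and TNFRSF1B at 12 h (-1.31) lie beyond it.

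For the canonical and the noncanonical member with the largest change, the genes with the most similar profile were sought among 12486 genes above background (symbols of the LOC and open reading frame kind left out), by the mean absolute difference between the 4 group means after each gene was centred on its own mean. For NFKB1 they were REEP1 (0.0072 log2 units), ZNF696 (0.011) and QDPR (0.0116). For TRAF3 they were UNC13C (0.005), NINJ2 (0.0071) and H2BC9 (0.0076). REEP1 changed by -0.14 at 6 h and -0.69 at 12 h, and UNC13C by 0.05 and 0.41. The genes were picked for this likeness, so their changes match by selection. All of these distances are below the SE of the NFKB1 and TRAF3 changes at 12 h (0.07 and 0.08). Neither the ranks nor a shared control was tested.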

How the data were processed

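RNA from KMS-11 cells was labelled with biotin and hybridised to Illumina arrays, per the labels' protocols. The authors deposited 1 linear intensity for each of 47319 probes and 12 arrays, and the sources used here do not give the scanner software, background correction or normalization. The platform annotation gave 1 gene symbol for 30111 probes, several for 8 and none for 17200, and 30072 symbols were updated through RefSeq (GRCh38.p14).

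Intensities were floored at 16, quantile normalized and taken to log2. The brightest probe stood for a gene, and no gene was filtered out. A linear model with 4 group means was fitted to every gene in limma 3.58.1 under R 4.3.3, with an intensity trend, p-values were Benjamini-Hochberg adjusted, and the threshold was 0.05. The fit was tested on simulated data. Background signal left in the intensities understates fold changes of dim genes, and precision is limited by the 3 arrays per group.

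The members, lists, tests and alternatives were chosen with earlier results of these data known. Named genes are all members, up to 4 per list with the largest called change above background and the 3 nearest profiles of 2 members. IKBKB, CHUK, MAP3K14, CD68, FCGR3A, DCN, PDGFRB, ZC3H12A, PTGS2 and the plasma cell markers with values were named after their values were seen. So were SDC4, TNFAIP2, CD83 and CXCL8, and the genes cited as close to or below background. Listed genes not measured were not analysed here. Alternatives varied the normalization (median centring, cyclic loess), background, filter, probe rule, variance trend, replicate block, brightness covariate and arrays. Figures were drawn with matplotlib 3.10.9.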

Additional observations from a re-analysis of the deposited data

Results flagged for a closer look

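For the genes below, the effect of NSC12 at 12 h differed from its effect at 6 h by the interaction term of the limma fit over all genes, at an adjusted p below 0.05. Such a difference was called for 10.4% of all genes. Among the members, the difference (effect at 12 h minus effect at 6 h, log2) was -0.53 for NFKB1 (limma adjusted p = 0.00226), 0.41 for NFKBIB (limma adjusted p = 0.0419) and 0.37 for TRAF3 (limma adjusted p = 0.0344). The NFKB1 difference passed in 20 of 21 alternatives, that of NFKBIB in 9 of 21 and that of TRAF3 in 11 of 21.

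Among the upstream genes, the difference was -0.66 for IKBKG (limma adjusted p = 0.000204), -0.42 for IKBKB (limma adjusted p = 0.0125), -1.06 for TNFRSF1B (limma adjusted p = 1.26e-05) and 0.44 for TNFRSF13B (limma adjusted p = 0.0173). Among inhibitors it was 0.39 for COMMD1 (limma adjusted p = 0.0239), 0.46 for TAX1BP1 (limma adjusted p = 0.00983) and 0.98 for NFKBIZ (limma adjusted p = 4.8e-05). Among target and signature genes it was -1.21 for CCL3 (limma adjusted p = 8.4e-07), 0.84 for GADD45B (limma adjusted p = 0.000174) and 0.54 for IL2RG (limma adjusted p = 0.0171). CCL3 itself rose by 0.96 in DMSO from 6 h to 12 h (limma adjusted p = 3.23e-07), while its NSC12 means were 13.27 and 13.02. For CD68 the difference was 1.08 (limma adjusted p = 0.000252), with changes of -0.50 at 6 h and 0.57 at 12 h that did not pass as the mean of its probes. With median centring, 5 of these 14 differences passed: those of TNFRSF1B, NFKBIZ, CCL3, GADD45B and CD68. That of IKBKB was also lost as the mean of its probes. Leaving out 1 array at a time ended the calls of TNFRSF13B (without replicate 1 of NSC12 at 6 h, or replicate 2 of DMSO at 6 h or of NSC12 at 12 h), IL2RG (without replicate 2 of any of the 4 groups) and COMMD1 (without replicate 1 or 3 of NSC12 at 6 h, 1 or 2 of DMSO at 6 h, 2 or 3 of NSC12 at 12 h or 2 of DMSO at 12 h). Among other listed genes the difference also passed for ZC3H12A (0.64, limma adjusted p = 0.00175), PTGS2, which lay below background (0.29, limma adjusted p = 0.0326), PDGFRB (-0.38, limma adjusted p = 0.0428) and 5 of the 10 plasma cell markers. Those 5 were IRF4 (-0.74), PRDM1 (-0.67), POU2AF1 (-0.52), SDC1 (-0.42) and XBP1 (-0.33), with limma adjusted p of 0.00021 to 0.0348. IRF4 rose by 0.33 at 6 h (limma adjusted p = 0.0056) and fell by 0.40 at 12 h (limma adjusted p = 0.000356). Its DMSO level rose by 0.36 from 6 h to 12 h (limma adjusted p = 0.0489).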

How the results depend on the processing

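NFKB1 and TRAF3 at 12 h passed in 22 of 22 alternatives (-0.73 to -0.49 and 0.35 to 0.55, log2), NFKBIB at 12 h in 20 of 22 and TNFAIP3 at 6 h in 17 of 22. Over all member changes and alternatives, 612 kept their side of the threshold, 30 lost it, 5 gained it, and no called change turned its sign. Median centring had the widest effect, and its cause was not tested: it called 0 members at 6 h, lost NFKBIB at 12 h (0.30, limma adjusted p = 0.108) and the NFKB1 difference (-0.27, limma adjusted p = 0.721). Over all genes it called 1470 at 6 h (18.8% higher, against 42.5% of 2619), 4087 at 12 h (36.3% higher, against 47.3% of 5784), 364 for the difference of effects (76.1% higher, against 44.7% of 2089) and 14 over time in DMSO (92.9% higher, against 62.5% of 80; cyclic loess 76.5% higher). With array brightness as a covariate 0 members passed at 6 h. With the dimmest array of each DMSO group left out, a choice made after seeing the data, 2 members passed at 6 h (TNFAIP3 and RELB) and 5 at 12 h (TNFAIP3 and REL besides NFKB1, NFKBIB and TRAF3). Leaving out 1 array at a time gave 0 to 1 members at 6 h, 3 to 5 at 12 h (5 without DMSO 12 h replicate 1), 1982 to 2902 genes at 6 h, 5109 to 5874 at 12 h, 1545 to 2156 for the difference and 21 to 123 over time in DMSO. The labels do not say whether the replicate numbers pair the samples. Deviations from the group mean correlated at -0.465 to 0.175 between same-numbered arrays of different groups, above 0.1 in 2 of 18 pairs. Between arrays of other numbers they correlated at -0.193 to 0.44. With 3 arrays per group these correlations cannot settle whether the samples were paired. With the replicate number as a block, 2504 genes were called at 6 h and 5695 at 12 h, and 1 and 3 members; CHUK (limma adjusted p = 0.0656) and MAP3K14 (limma adjusted p = 0.052) did not pass at 12 h. Signal close to background limits REL, RELA and TRAF3.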
